A study of Mus musculus with 9 samples.

Results

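The Arid genes encode proteins with an AT-rich interaction domain, a helical fold that binds DNA. Here the 10 genes with that name in a deposited table of 26358 mouse genes were followed through the freezing of oocytes: Arid5b, Arid5a, Arid1a, Arid1b, Arid2, Arid3a, Arid3b, Arid3c, Arid4a and Arid4b. Arid5b was chosen by its low level in oocytes frozen with cryopreservation-2, seen in earlier work on these data. The other 9 were chosen by name alone, to show whether the family moved with it. All 10 passed the filter on low counts that left 17545 genes for testing.

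The family works through different partners. ARID1A and ARID1B are alternative subunits of BAF, a complex that slides and evicts nucleosomes using ATP, and ARID2 belongs to PBAF, a related complex. ARID3A, ARID3B and ARID3C bind DNA directly, and ARID3A was first described as an activator of immunoglobulin transcription in B cells. ARID4A and ARID4B bind the retinoblastoma protein and sit in Sin3 complexes, which remove acetyl groups from histones. ARID5A also binds RNA and stabilises messages of inflammation. ARID5B forms a demethylase complex with PHF2 that removes repressive methyl marks from histones, and mice that lack it have defects of growth, fat tissue and the reproductive organs. An oocyte late in its growth makes little new RNA, so its stored messages largely set what the egg and early embryo can use.

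Poly(A) RNA of mouse oocytes was sequenced in 9 libraries, 3 from fresh oocytes and 3 from each of 2 freezing protocols. In cryopreservation-1 the oocytes were held on a cryotop with 15% EG, 15% DMSO and 0.5 M sucrose. In cryopreservation-2 they were held in a straw with 17.5% EG, 1 M trehalose and nanoparticles labelled PVA/Fe3O4/GO. Carrier, solutes and particles changed together, so their parts in any difference cannot be told apart. The labels give no strain, age, oocyte stage, allele or number of oocytes, and nothing in them says that replicates came from separate animals. P-values therefore measure the spread between these libraries, which may be technical. A lower level of a gene in bulk poly(A) RNA can mean fewer oocytes that carry the message or less message in each. It can also mean tails too short for the selection, and these readings cannot be told apart.

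Libraries held 49337232 to 80877288 counts, and the 3 cryopreservation-2 libraries were the smallest. Fresh replicate 3, cryopreservation-1 replicate 3 and cryopreservation-2 replicate 1 stood apart, with 8421 to 9108 genes at 0 against 6351 to 7744 in the other 6. All 12 oocyte marker genes were detected in every library, where they took 1.05% to 1.77% of the counts. The 13 cumulus and granulosa cell markers in the table took 0.0952% to 0.126% of counts in fresh, 0.103% to 0.127% in cryopreservation-1 and 0.113% to 0.176% in cryopreservation-2, with 3 to 6 of them at 0 in a library. Nearly all of that share was Serpine2. The other 12 took 0.00758% to 0.00929% in fresh, 0.00727% to 0.00901% in cryopreservation-1 and 0.00500% to 0.00930% in cryopreservation-2. Of the 9 tested markers of the whole list, Serpine2 included, 6 had a negative fold change from fresh in cryopreservation-2 (median log2 -0.38, 0 called by edgeR). Of 9 immune and blood markers, 6 to 7 were at 0 in each fresh or cryopreservation-1 library and 2 to 4 in each cryopreservation-2 library. This list took 0.000899% to 0.00126% of counts in fresh, 0.000688% to 0.00157% in cryopreservation-1 and 0.000376% to 0.00141% in cryopreservation-2. Markers of stroma, endothelium and epithelium took at most 0.0209%. Between cryopreservation-2 and fresh, edgeR called 558 of all 17545 tested genes higher and 386 (2.2%) lower. In the same comparison it called 2 of 7 tested markers of the last list higher and 1 of 12 oocyte markers lower. These were Myh11 (log2 fold change 0.88, adjusted p = 0.0404), Krt8 (0, 4 and 0 counts in fresh, 205, 96 and 122 after cryopreservation-1 and 56, 139 and 36 after cryopreservation-2, adjusted p = 0.0260) and Oog1 (-0.84, adjusted p = 0.0228). Oog1 was also called lower between cryopreservation-2 and cryopreservation-1 (-0.85, edgeR adjusted p = 0.0307). The part of such cells in the results below was not tested.

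Arid5b (ENSMUSG00000019947) lies on the minus strand of chromosome 10, from 68092520 to 68278740 in GRCm38, and the deposited table lists 4 transcripts for it. In fresh oocytes it had 11162, 19880 and 7525 counts in replicates 1 to 3. After cryopreservation-1 it had 17828, 14132 and 10189. After cryopreservation-2 it had 297, 245 and 272. All 3 cryopreservation-2 libraries were thus far below the other 6, which overlapped each other. In reads scaled to library size and composition (CPM), the lowest of the other 6 libraries was 18.6-fold above the highest cryopreservation-2 library. In FPKM, a level per transcript length and library size, the mean was 14.5 ± 6.90 for fresh oocytes. It was 16.8 ± 2.83 after cryopreservation-1 and 0.445 ± 0.0385 after cryopreservation-2 (SD, n = 3 each).

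**Figure D1:**
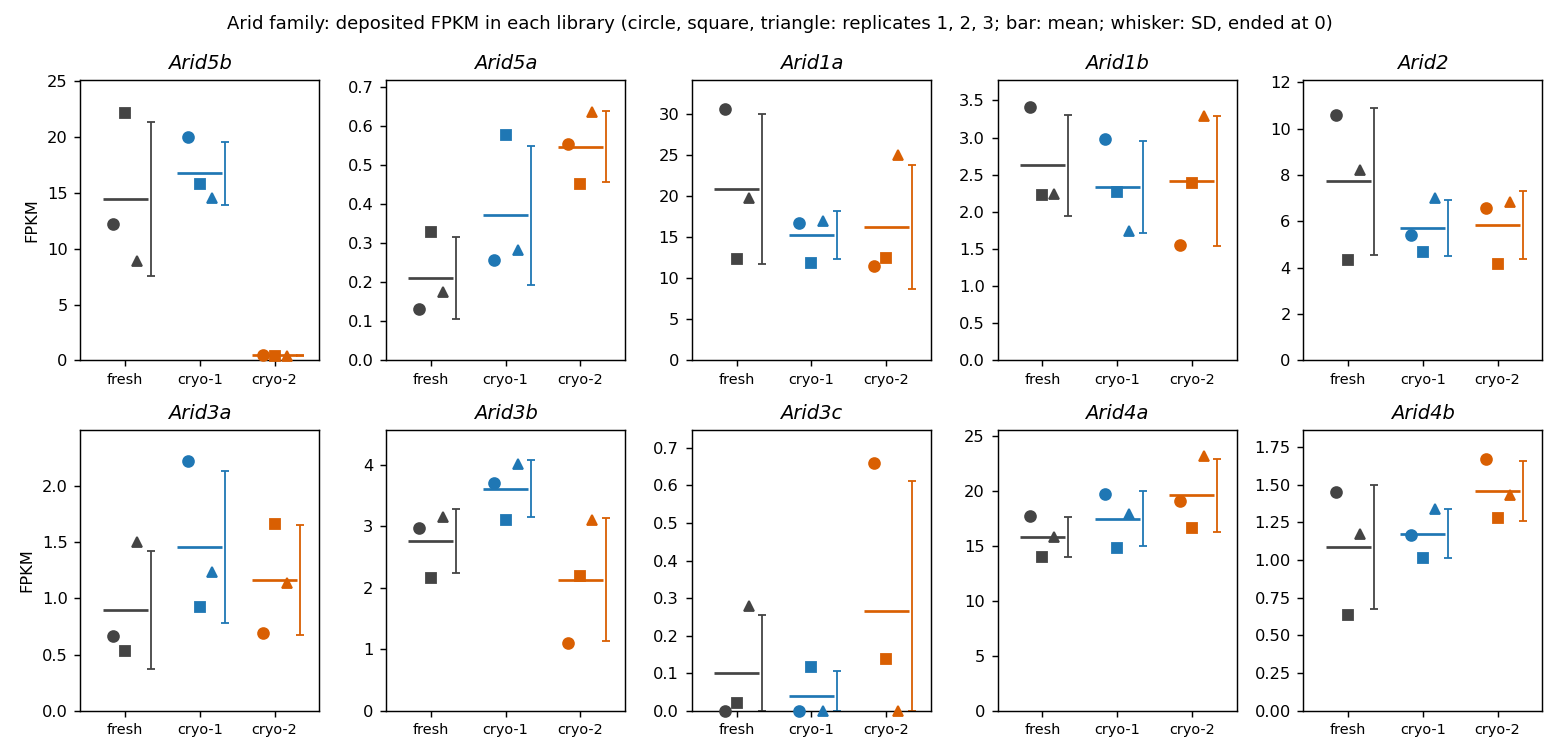
Deposited FPKM of the 10 Arid genes in each library; circles, squares and triangles are replicates 1, 2 and 3, the horizontal bar is the group mean and the whisker is the SD of 3 libraries, ended at 0. Each panel has its own axis from 0. Arid5b sits at 0.415 to 0.488 in the cryopreservation-2 libraries and at 8.93 or more in the others, and no other member shows such a gap.

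Cryopreservation-2 oocytes kept 2.77% of the mean fresh CPM of Arid5b and 2.54% of that after cryopreservation-1. The log2 fold change was -5.17 (SE 0.40) against fresh and -5.30 (SE 0.40) against cryopreservation-1. These values chose the gene, so they are given as a description with no test, and the 2 comparisons share the cryopreservation-2 libraries. From the lowest fold change, Arid5b ranked 222 of 17545 genes against fresh and 226 against cryopreservation-1. Spread within groups was much smaller than the gap: the highest library was 2.69 times the lowest in fresh, 1.41 times in cryopreservation-1 and 1.27 times in cryopreservation-2. In edgeR refits the difference between fresh and cryopreservation-2 was 24.97-fold without fresh replicate 2, the highest fresh library. The difference was 43.9-fold without the 3 libraries that stood apart. On the log2(FPKM + 1) scale it was 10.04-fold against fresh and 12.2-fold against cryopreservation-1, since a pseudocount of 1 exceeds the cryopreservation-2 level.

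Freezing by cryopreservation-1 left no detectable change in Arid5b. Its mean CPM was 193 ± 34.5 there and 177 ± 95.8 in fresh (SD, n = 3), and the ranges overlapped. Its log2 fold change was 0.12 (SE 0.33, 95% interval -0.61 to 0.86, edgeR adjusted p = 1), an interval that holds a fall or a rise of modest size. The fresh libraries in this comparison were also used in choosing the gene.

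None of the other 9 members was called changed between any 2 groups at an adjusted p under 0.05 (edgeR's quasi-likelihood test over 17545 genes). Across all genes tested, 5.38% were called between cryopreservation-2 and fresh, and 2.2% were called lower. Between cryopreservation-1 and fresh 0% were called. Between cryopreservation-2 and cryopreservation-1 2.75% were called, and 1.25% were called lower. With so low a background, 0 of 9 is near what these shares give. At an unadjusted p under 0.05, 1 of the 9 passed between cryopreservation-2 and fresh (Arid5a), 0 between cryopreservation-1 and fresh, and 1 between cryopreservation-2 and cryopreservation-1 (Arid3b). Of all genes tested, 21.8%, 4.72% and 18.9% did so in the same 3 comparisons. DESeq2 called 0 of the 9 in every comparison. Limma on log2 FPKM called 0 of the 7 that passed its filter on low values, which left out Arid5a and Arid3c.

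Deviations from the group means correlated weakly, at 0.142 to 0.238, between fresh and cryopreservation-1 libraries of the same replicate number. Between libraries of these groups with other numbers r was -0.187 to 0.0541, but cryopreservation-1 replicate 3 and cryopreservation-2 replicate 1 reached 0.225. In the 3 same-numbered pairs of fresh and cryopreservation-1, CPM was higher after cryopreservation-1 in 3 of 3 for Arid5a and Arid3b. It was higher in 0 of 3 for Arid1a, Arid1b and Arid2. The share of all genes with such agreement between pairs is not given here, so these counts are descriptions only. With these 2 groups fitted alone and the number as a block, 0 of the 9 members that passed the filter there were called (Arid3c did not pass). The smallest p was that of Arid1a, at a log2 fold change of -0.48 (SE 0.17, edgeR adjusted p = 0.663, unadjusted p = 0.0276). Of all 16177 genes tested in this fit, 1164 had an unadjusted p under 0.05 with the block and 666 without it.

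The 9 did not lean one way. In each comparison 4 had a negative and 5 a positive fold change. Their median log2 fold change was 0.18 between cryopreservation-2 and fresh, against -0.06 for all genes tested. Between cryopreservation-1 and fresh it was 0.07 against 0.02 for all genes, and between cryopreservation-2 and cryopreservation-1 it was 0.01 against -0.07. Groups did not overlap in CPM for 1 of the 9 between cryopreservation-2 and fresh, where 27.5% of all tested genes did not. The same count was 0 of 9 between cryopreservation-1 and fresh, against 10.1% of all genes, and 1 of 9 between cryopreservation-2 and cryopreservation-1, against 29% of all genes.

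**Figure D2:**
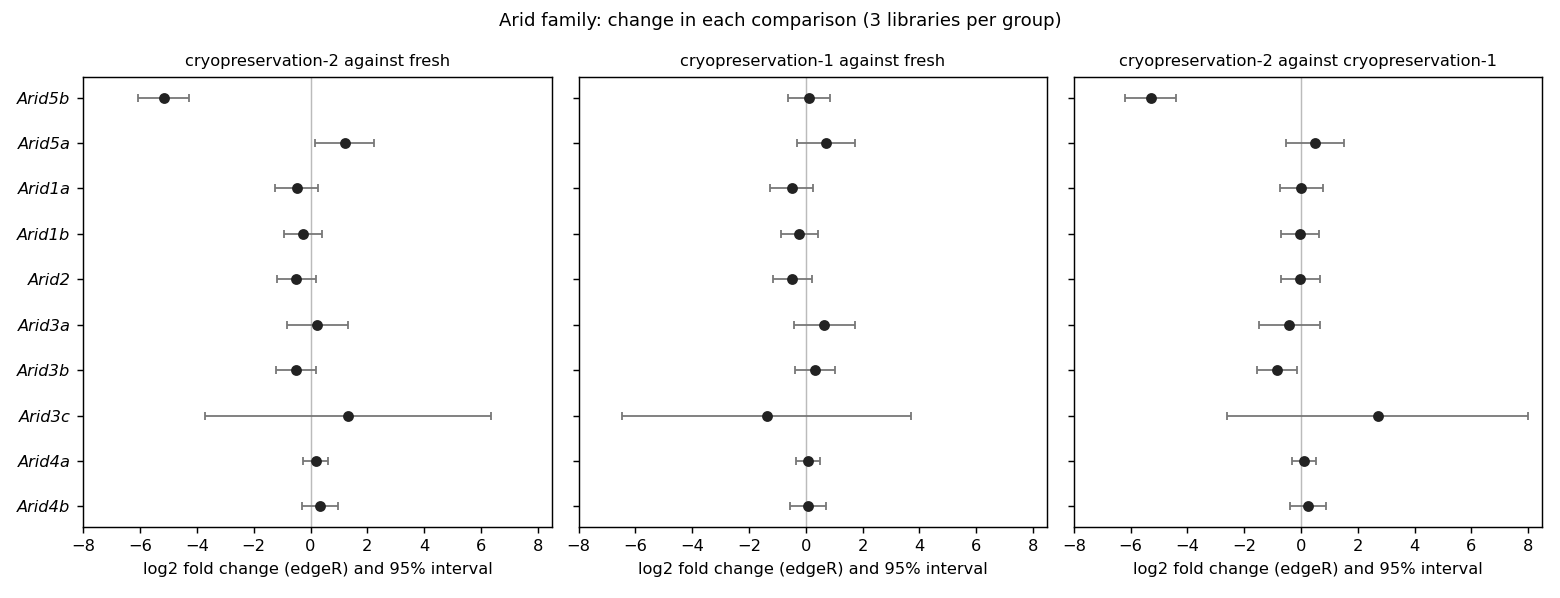
Log2 fold change of each Arid gene with its 95% interval from the edgeR fit, for the 3 comparisons of 3 libraries against 3. Arid5b lies at -5.17 and -5.30 in the comparisons with cryopreservation-2 and at 0.12 between cryopreservation-1 and fresh; the wide intervals of Arid3c go with its 0 to 71 counts per library.

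Arid5a (ENSMUSG00000037447; chromosome 1, 36307733 to 36324029, plus strand) is the closest relative of Arid5b by name and pointed the other way. Its CPM was 1.87, 5.35 and 2.61 in fresh oocytes, 3.72, 8.38 and 3.999 after cryopreservation-1 and 8.13, 6.17 and 8.35 after cryopreservation-2. Every cryopreservation-2 library was above every fresh one, and cryopreservation-1 overlapped both. The log2 fold change between cryopreservation-2 and fresh was 1.20 (SE 0.47, 95% interval 0.16 to 2.24), which did not pass correction (edgeR adjusted p = 0.166). Between cryopreservation-1 and fresh it was 0.71 (SE 0.46, adjusted p = 1). In FPKM Arid5a was a minor member, with means of 0.212 ± 0.105 in fresh and 0.548 ± 0.0913 in cryopreservation-2 (SD, n = 3). In cryopreservation-2 its FPKM range overlapped that of Arid5b, which had been far above it in fresh oocytes.

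The BAF subunit Arid1a (ENSMUSG00000007880; chromosome 4, 133679008 to 133753982, minus strand) had the highest mean FPKM of the family in fresh oocytes. Its FPKM was 30.5, 12.4 and 19.8 in fresh, 16.8, 11.8 and 17.0 after cryopreservation-1 and 11.5, 12.4 and 24.97 after cryopreservation-2. The 3 groups overlapped, and the SD within fresh, 9.12, exceeded the difference between any 2 group means. Between cryopreservation-2 and fresh the log2 fold change was -0.49 (SE 0.34, 95% interval -1.24 to 0.27, edgeR adjusted p = 0.457). Between cryopreservation-2 and cryopreservation-1 it was 0.01 (SE 0.34, adjusted p = 0.991), with an interval of -0.74 to 0.77.

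Arid1b (ENSMUSG00000069729; chromosome 17, 4994332 to 5347656, plus strand), the alternative BAF subunit, had a lower FPKM than Arid1a in every group. Its FPKM was 3.41, 2.22 and 2.25 in fresh, 2.98, 2.26 and 1.75 after cryopreservation-1 and 1.55, 2.39 and 3.30 after cryopreservation-2. All groups overlapped, and the log2 fold change between cryopreservation-2 and fresh was -0.26 (SE 0.30, 95% interval -0.93 to 0.40, adjusted p = 0.690).

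Arid2 (ENSMUSG00000033237; chromosome 15, 96287518 to 96404992, plus strand), the PBAF subunit, had FPKM values of 10.6, 4.35 and 8.21 in fresh, 5.39, 4.67 and 7.03 after cryopreservation-1 and 6.58, 4.17 and 6.83 after cryopreservation-2. Fresh replicates 1 and 3 were above all 6 frozen libraries, while fresh replicate 2 lay inside the cryopreservation-2 range. On the log2 scale it differed by -0.50 (SE 0.31, adjusted p = 0.389) between cryopreservation-2 and fresh and -0.48 (SE 0.31, adjusted p = 1) between cryopreservation-1 and fresh.

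Among the DNA-binding ARID3 genes, Arid3b (ENSMUSG00000004661; chromosome 9, 57790353 to 57836793, minus strand) had the most FPKM. Its CPM was 26.6, 22.2 and 29.7 in fresh, 34.1, 28.5 and 35.9 after cryopreservation-1 and 10.1, 18.7 and 25.7 after cryopreservation-2. All cryopreservation-2 libraries lay under all cryopreservation-1 libraries, while fresh overlapped both. The log2 fold change between cryopreservation-2 and cryopreservation-1 was -0.85 (SE 0.32, 95% interval -1.56 to -0.14), which did not pass correction (edgeR adjusted p = 0.177). Against fresh it was -0.52 (SE 0.32, adjusted p = 0.382). Cryopreservation-2 replicate 1, one of the libraries that stood apart, held the lowest value.

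Arid3a (ENSMUSG00000019564; chromosome 10, 79927043 to 79955018, plus strand) had 337, 262 and 698 counts in fresh, 1096, 457 and 479 after cryopreservation-1 and 231, 543 and 395 after cryopreservation-2. The highest library of a group was 2.24 to 2.61 times its lowest, and the groups overlapped. The log2 fold change between cryopreservation-2 and fresh was 0.23 (SE 0.48, 95% interval -0.84 to 1.31, adjusted p = 0.845).

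Arid3c (ENSMUSG00000066224; chromosome 4, 41723836 to 41731142, minus strand) was near the limit of detection. It had 0, 4 and 42 counts in fresh, 0, 19 and 0 after cryopreservation-1 and 71, 15 and 0 after cryopreservation-2. A count of 0 allows up to 3 counts, or 0.0372 CPM in fresh replicate 1 and 0.0484 CPM in cryopreservation-1 replicate 3, counting error only. A difference was not detectable at this depth (log2 fold change 1.32, SE 2.27, edgeR adjusted p = 0.805 between cryopreservation-2 and fresh).

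The Sin3 and retinoblastoma partner Arid4a (ENSMUSG00000048118; chromosome 12, 71015990 to 71098592, plus strand) had the smallest SE of the family. Its FPKM was 17.7, 14.0 and 15.8 in fresh, 19.8, 14.8 and 17.9 after cryopreservation-1 and 19.1, 16.6 and 23.2 after cryopreservation-2. The group means of 15.8 ± 1.83, 17.5 ± 2.52 and 19.6 ± 3.33 (SD, n = 3 each) lay close together and the ranges overlapped. The log2 fold change between cryopreservation-2 and fresh was 0.18 (SE 0.19, adjusted p = 0.668), and its interval of -0.25 to 0.60 is the narrowest among the 10.

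Arid4b (ENSMUSG00000039219; chromosome 13, 14063232 to 14199362, plus strand), found in the same Sin3 complexes, had a much lower level per length than Arid4a. Its FPKM was 1.45, 0.636 and 1.17 in fresh, 1.17, 1.02 and 1.34 after cryopreservation-1 and 1.67, 1.28 and 1.43 after cryopreservation-2. The groups overlapped, and the log2 fold change between cryopreservation-2 and fresh was 0.32 (SE 0.28, 95% interval -0.31 to 0.95, adjusted p = 0.579).

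Ranked by mean FPKM, the fresh order was Arid1a, Arid4a, Arid5b, Arid2, Arid3b, Arid1b, Arid4b, Arid3a, Arid5a and Arid3c. Each of the first 3 overlapped the next in range. Arid2 stood clear of Arid3b, Arid1b of Arid4b, and Arid3a of Arid5a. After cryopreservation-1 Arid4a, Arid5b and Arid1a led with overlapping ranges, and Arid5b was rank 2. After cryopreservation-2 Arid5b was rank 9, between Arid5a and Arid3c, and its range overlapped both. The other 9 kept their fresh order but for Arid4a above Arid1a and Arid1b above Arid3b, pairs whose ranges overlapped.

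Between fresh and cryopreservation-2, most of the difference in the family's summed FPKM came from Arid5b. The sum of the 10 FPKM values was 66.6 ± 11.4 for fresh oocytes, 64.2 ± 8.62 after cryopreservation-1 and 50.2 ± 12.9 after cryopreservation-2 (SD, n = 3 each). Without Arid5b it was 52.1 ± 15.4, 47.4 ± 7.05 and 49.7 ± 12.9, which differ by less than 1 SD. The share of Arid5b in the sum was 15.4%, 37.7% and 14.6% in the fresh libraries, 27.7%, 28.6% and 22.4% after cryopreservation-1 and 1.11%, 0.994% and 0.665% after cryopreservation-2.

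**Figure D3:**
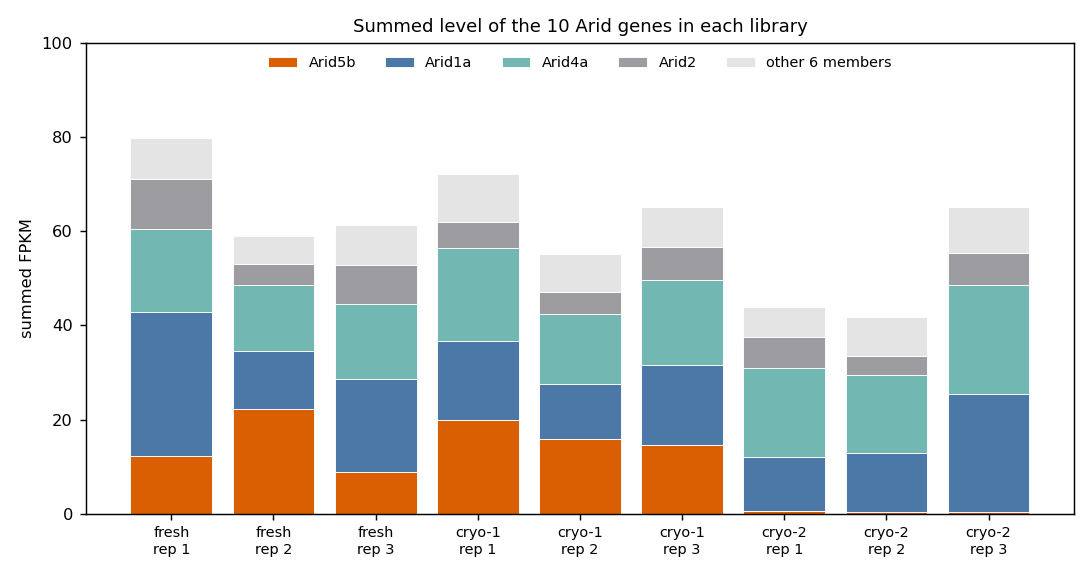
Summed FPKM of the 10 Arid genes in each library, stacked by gene, with 6 minor members combined. The Arid5b layer is 8.93 to 22.2 FPKM in fresh and cryopreservation-1 libraries and under 0.5 FPKM in cryopreservation-2, while Arid1a, Arid4a and Arid2 are present in all 9.

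Members differed in which library was high. In fresh oocytes, replicate 2 was the highest library for Arid5b and Arid5a and the lowest for Arid1a, Arid2, Arid3a, Arid3b, Arid4a and Arid4b. Over the 9 libraries, Pearson's r of log2 CPM with Arid5b was -0.54 for Arid5a, 0.19 for Arid1a, 0.66 for Arid3b and -0.52 for Arid4b. After removing each group's mean it was 0.54, -0.48, -0.47 and -0.62 for the same genes. These are descriptions over points that share library and depth.

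Gene length moved with the comparison. By the ratio of count to FPKM, 7 of the 10 members are in the longest 4281 of tested genes with a length, and Arid5b is at percentile 92.0. The median log2 fold change between cryopreservation-2 and fresh was 0.27, -0.02, -0.16 and -0.22 in 4 groups of near-equal size from the shortest to the longest genes. With a length offset in the fit, Arid5b was 32.7-fold lower than fresh, and 0 of the other 9 were called. The part of gene length in the level of Arid5b was not tested.

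Gm47078, a predicted gene 34.3 kb from Arid5b and the nearest tested gene on its higher-coordinate side (chromosome 10, 68313008 to 68326978, plus strand), was not called. Its log2 fold change between cryopreservation-2 and fresh was 0.15 (SE 0.55, edgeR adjusted p = 0.916). No gene of the table overlaps Arid5b. Arid1b, Arid2, Arid3b, Arid3c and Arid4b do overlap others, and since the strand setting of the counting is not given in the sources used here, reads of Arid3b and Gm17231, of Arid3c and Il11ra1, of Arid4b and Ggps1 or Gm48027, of Arid1b and Gm15599, and of Arid2 and Gm25397 may not be fully separated.

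The remaining genes with this domain are Jarid2, an accessory subunit of the Polycomb complex that methylates histones, and the histone demethylases Kdm5a, Kdm5b, Kdm5c and Kdm5d. Between cryopreservation-2 and fresh 0 of the 4 tested were called at an adjusted p under 0.05, where 5.38% of all genes were. Their log2 fold changes were -0.20 for Jarid2, -0.23 for Kdm5a, -0.22 for Kdm5b and 0.41 for Kdm5c. Those of Jarid2 and Kdm5b changed sign when single libraries were left out. The Y-linked Kdm5d did not pass the filter.

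Phf2, the demethylase that works with ARID5B, was weakly expressed and not called. It had 540, 326 and 207 counts in fresh, 579, 569 and 293 after cryopreservation-1 and 297, 391 and 405 after cryopreservation-2. The ranges overlapped, and the log2 fold change between cryopreservation-2 and fresh was 0.45 (SE 0.36, edgeR adjusted p = 0.531). Its relatives Phf8 and Kdm7a had 0.40 and 0.11, and 0 of the 3 was called in any comparison.

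The BAF and PBAF list had 24 tested genes, of which 1 rose and 1 fell between cryopreservation-2 and fresh, with a median log2 fold change of -0.18 against -0.06 for all genes. Actl6a, an actin-related subunit, had CPM values of 20.1, 30.0 and 33.0 in fresh, 34.2, 36.4 and 40.5 after cryopreservation-1 and 168, 72.8 and 52.6 after cryopreservation-2. All cryopreservation-2 libraries were above all others, with replicate 1 the highest, and the log2 fold change from fresh was 1.82 (SE 0.40, edgeR adjusted p = 0.0299). Bcl7b, another subunit, had CPM values of 82.0, 100.3 and 99.1 in fresh, 119.7, 119.0 and 109.7 after cryopreservation-1 and 33.2, 53.8 and 50.6 after cryopreservation-2. Its 3 cryopreservation-2 libraries were below all others. On the log2 scale the difference was -1.03 from fresh (SE 0.22, adjusted p = 0.0269) and -1.34 from cryopreservation-1 (SE 0.22, adjusted p = 0.0178).

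In the Sin3 list, 1 of 17 tested genes fell and 0 rose between cryopreservation-2 and fresh, with a median of 0.05. The one was Sap30, a core subunit, at 1147 ± 246 CPM in fresh, 1067 ± 91.3 after cryopreservation-1 and 656 ± 57.0 after cryopreservation-2 (SD, n = 3 each). Its log2 fold change from fresh was -0.81 (SE 0.19, edgeR adjusted p = 0.0399). Of 13 retinoblastoma and E2F genes, 1 fell and 0 rose, 10 had a negative fold change and the median was -0.63, where 52.4% of all genes were negative. Between cryopreservation-1 and fresh, 11 of the 13 were negative, 0 were called and the median was -0.34. Of all genes 47.8% were negative there, with a median of 0.02. Some of the 13 were near the limit of detection, such as E2f3 with 45, 0 and 0 counts in fresh. Rbl2, which encodes the pocket protein p130, had 466, 291 and 447 counts in fresh, 310, 356 and 264 after cryopreservation-1 and 126, 94 and 71 after cryopreservation-2. Its log2 fold change from fresh was -1.61 (SE 0.37, adjusted p = 0.0368).

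Across the 5 lists, 6.56% of 61 tested genes were called between cryopreservation-2 and fresh, near the 5.38% of all genes. Between cryopreservation-1 and fresh 0 were called, by edgeR, and between cryopreservation-2 and cryopreservation-1 1 was (1.64%, against 2.75%). The 4 calls against fresh were close to the threshold in edgeR. DESeq2 called all 4, at adjusted p of 0.000159 to 0.000546, and limma on log2(FPKM + 1) called Actl6a (0.00540), Bcl7b (0.0183) and Sap30 (0.0295) and did not test Rbl2. With single libraries left out of the edgeR fit, that of Sap30 was lost for each of the 9 libraries (adjusted p 0.0578 to 0.101). That of Rbl2 was lost for all but cryopreservation-2 replicate 1 (0.0501 to 0.122). That of Bcl7b was lost for all but that library and cryopreservation-1 replicate 3 (0.0517 to 0.0864). That of Actl6a was lost without any of the 3 fresh libraries and without cryopreservation-1 replicate 1 or 2, with adjusted p of 0.0552 to 0.0932. All 4 were lost without the 3 libraries that stood apart, at adjusted p of 0.0619 to 0.0959. The call of Bcl7b against cryopreservation-1 was lost without any 1 cryopreservation-1 library or cryopreservation-2 replicate 3 (0.0597 to 0.0812), and without the 3 libraries together (0.0778).

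**Figure D4:**
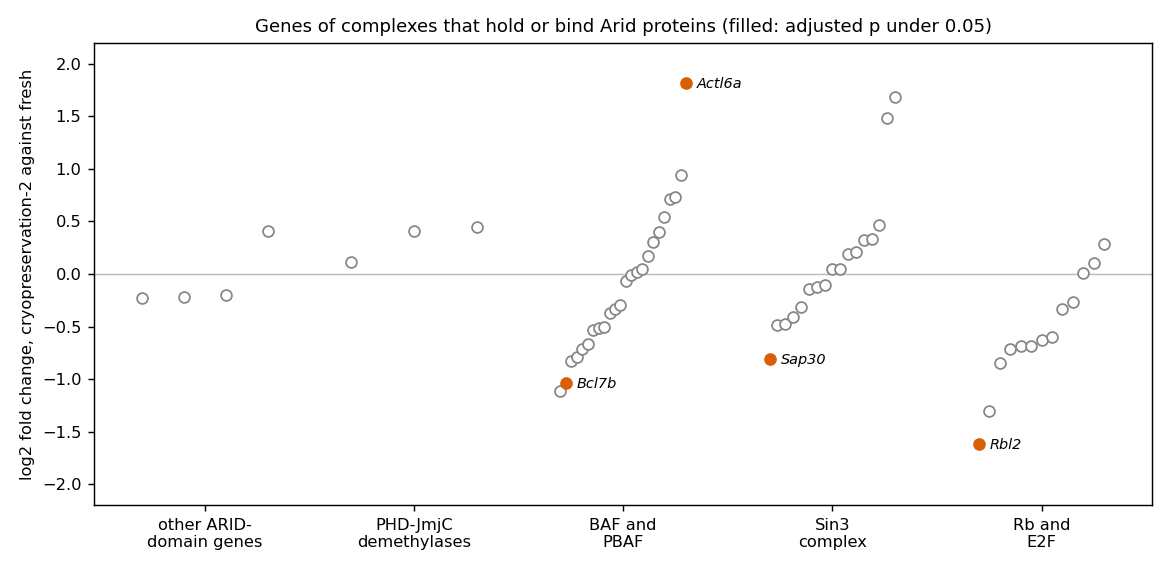
Log2 fold change between cryopreservation-2 and fresh for each tested gene of the 5 lists, sorted within a list; filled points passed an edgeR adjusted p of 0.05. The 4 filled points are Actl6a at 1.82, Bcl7b at -1.03, Sap30 at -0.81 and Rbl2 at -1.61.

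The genes with the pattern most like that of Arid5b were found by Pearson's r of log2 CPM over the 9 libraries, among 8090 tested genes with a mean of at least 5 CPM. The highest were Gm49463 (r = 0.994), Gm10436 (0.988), Gm839 (0.986), Chd2 (0.983) and Stx7 (0.980), and 232 genes had r above 0.9. Likeness of shape was not likeness of size. Cryopreservation-2 held 73.7% of the fresh mean CPM for Gm49463, 55.6% for Gm10436, 68.0% for Gm839 and 44.4% for Stx7, a SNARE protein of endosomes, against 2.77% for Arid5b. Chd2, a chromatin remodelling helicase, came closest with 11.4%. It had 1418, 2242 and 1643 counts in fresh, 1804, 2422 and 1838 after cryopreservation-1 and 180, 160 and 116 after cryopreservation-2. All 3 cryopreservation-2 libraries of Chd2 were well under the other 6. Within groups, after removal of the group means, r with Arid5b was 0.91 for Gm49463, 0.76 for Gm10436, 0.94 for Gm839, 0.47 for Chd2 and 0.46 for Stx7. These r values use CPM, which depends on the TMM factors, and fresh replicate 2 had the lowest factor, 0.868. In FPKM, fresh replicates 1 to 3 were at 12.3, 22.2 and 8.93 for Arid5b. They were at 8.24, 8.05 and 7.86 for Gm49463, 175, 182 and 167 for Gm10436 and 257, 261 and 242 for Gm839. The part of the scaling in these r values was not tested. As these genes were picked for their likeness over the same libraries, no test is given.

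**Figure D5:**
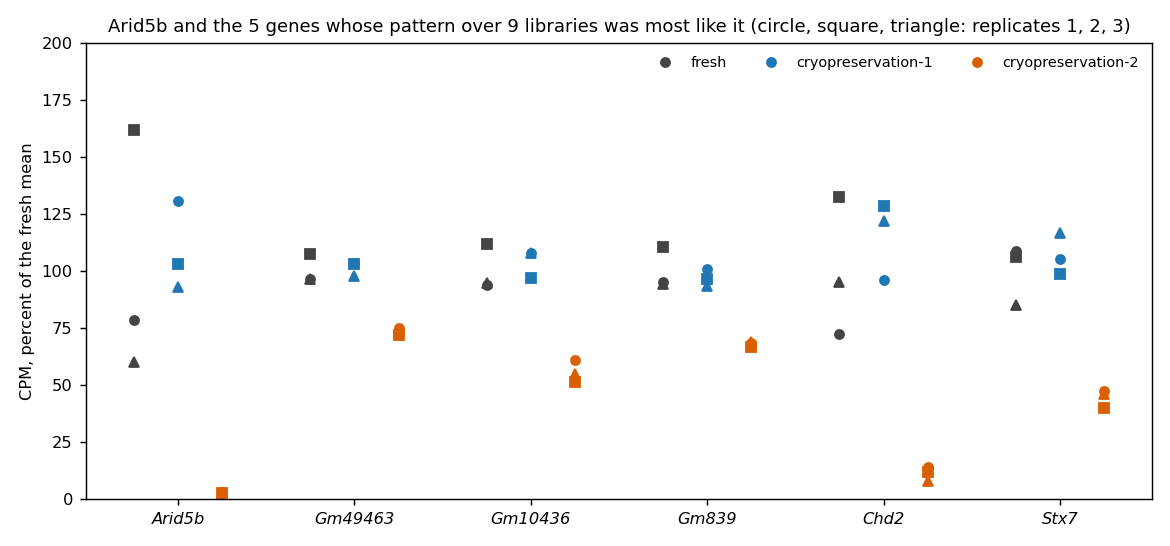
CPM in each library as a percent of the gene's fresh mean, for Arid5b and the 5 genes most like it; circles, squares and triangles are replicates 1, 2 and 3. In cryopreservation-2 Arid5b is at 2.53% to 3.22%, Chd2 at 7.94% to 14.2% and the other 4 at 39.8% to 75.05%.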

How the data were processed

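The authors deposited 1 table with raw counts per gene, whole numbers that were not normalized, and FPKM values, which are normalized for gene length and library size. Per the submitters' processing notes, cutadapt 1.9, HISAT2 2.0.4, StringTie 1.3.4d and the build GRCm38 were used. The tool used for counting, its strand setting and the gene annotation used are not given here. Selection on poly(A) can miss messages with short tails. PCR duplicates carried no molecular identifiers.

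Counts were tested with edgeR's quasi-likelihood test (edgeR 4.0.16, R 4.3.3). Genes passed filterByExpr (minimum count 10, total 15), libraries were scaled by TMM, and all 9 entered 1 fit. P-values were adjusted by Benjamini-Hochberg over 17545 genes, with a threshold of 0.05. CPM values are TMM-scaled, and the common biological coefficient of variation was 0.662. Alternatives used DESeq2 1.42.0 and limma 3.58.1, other scalings, no filter, a length offset, a replicate block and left-out libraries. The fit was tested on simulated data. No 2 replicates agreed within sampling noise (chi-square per degree of freedom 78.1 to 297). Deviations from the group means correlated at 0.142, 0.196 and 0.238 in the 3 same-numbered pairs of fresh and cryopreservation-1, so these groups were also fitted as pairs, an alternative chosen after seeing the data.

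Named genes were all members, the other genes with the domain, partner list genes called in any comparison and Phf2, the 5 genes most like Arid5b, and genes overlapping a member or nearest to Arid5b. The members and lists were chosen with earlier results of these data known. Of the 10 members, 8 had the same symbol and position in GENCODE M21; positions are those of the deposited table. Actl6b was not analysed here. The nearest tested gene on the other side of Arid5b is not reported here.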

Additional observations from a re-analysis of the deposited data

How the results depend on the processing

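The count of members other than Arid5b that were called was 0 in all 57 combinations of 19 settings and 3 comparisons; limma did not test Arid5a and Arid3c. Arid5b was lower in cryopreservation-2 under each of these settings, by 10.04-fold to 43.9-fold against fresh and by 12.2-fold to 42.3-fold against cryopreservation-1. Depth limits Arid3c, and 3 libraries per group limit every interval.

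Some small fold changes of members changed sign, and the cause was not tested. Between cryopreservation-2 and cryopreservation-1, Arid2 was at 0.0048 with DESeq2, 0.025 with limma on log2(FPKM + 1), 0.027 on log2(FPKM + 0.1), 0.018 with RLE factors, 0.0049 with upper-quartile factors, 0.12 with the length offset and 0.13 without the 3 libraries that stood apart. Arid1b was at 0.020 and 0.018 with limma at the 2 pseudocounts, 0.011 with RLE factors, 0.075 with the length offset and 0.12 without those 3 libraries. Without them, between cryopreservation-1 and fresh, Arid5b was at -0.063 and Arid3c at 2.05, and between cryopreservation-2 and fresh Gm47078 was at -0.32.

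With 1 library left out, the log2 fold change between cryopreservation-2 and fresh ran from -0.10 to 0.81 for Arid3a, -0.63 to 4.17 for Arid3c, -0.34 to 0.49 for Gm47078, -0.40 to 0.051 for Jarid2 and -0.47 to 0.17 for Kdm5b. Between cryopreservation-1 and fresh it ran from -0.14 to 0.66 for Arid5b, -6.85 to 1.48 for Arid3c, -0.022 to 0.19 for Arid4a and -0.17 to 0.28 for Arid4b. Between cryopreservation-2 and cryopreservation-1 it ran from -0.35 to 0.25 for Arid1a, -0.25 to 0.25 for Arid1b, -0.14 to 0.21 for Arid2, -0.71 to 0.034 for Arid3a and -0.0092 to 0.24 for Arid4a.

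Of 9 same-numbered pairs, 3 had a correlation of their deviations over 0.1, all between fresh and cryopreservation-1. No same-numbered pair with cryopreservation-2 was over 0.1 (lowest -0.24). Pairs of other numbers ran from -0.19 to 0.23, and 4 of 9 libraries correlated best with a library of their own number. Whether the numbers mark true pairs was not tested. Fresh and cryopreservation-1 fitted alone with the replicate block gave 0 members called, and a count of 1 among 16177 genes with the block and without it. With all 3 groups and the replicate block the count of members called was 0, Arid5b was at -5.09 against fresh, and Arid1a was at -0.0040 between cryopreservation-2 and cryopreservation-1. The block left Actl6a (adjusted p = 0.0779), Sap30 (0.0722) and Rbl2 (0.0764) above the threshold. With cryopreservation-2 and fresh fitted alone, Actl6a (0.0672), Bcl7b (0.0924), Sap30 (0.105) and Rbl2 (0.0973) were also above it, as were Sap30 (0.0616) and Rbl2 (0.0545) with no filter and Rbl2 with the length offset (0.0533).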

Other observations

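A gene farther from Arid5b was also low after cryopreservation-2. Tmem26, which encodes a membrane protein, lies 445 kb from Arid5b on chromosome 10 (68723646 to 68782650, plus strand, GRCm38), and was chosen after its values were seen, as was the window of 500 kb in which it was found. It had 103, 104 and 271 counts in fresh oocytes, 55, 107 and 38 after cryopreservation-1 and 0 in all 3 cryopreservation-2 libraries. Taking 3 counts in the whole group as the floor, it was at least 122-fold lower than fresh and at least 50.2-fold lower than cryopreservation-1. Without fresh replicate 3, one of the libraries that stood apart, the first bound is 77.2-fold. Without cryopreservation-1 replicate 2, the highest library of its group, the second bound is 36.9-fold. As Tmem26 was picked for its values in these same libraries, no test is given. Another gene in that window, Zfp365, a zinc finger gene 180 kb away, had a log2 fold change between cryopreservation-2 and fresh of 1.38 (SE 0.56, edgeR adjusted p = 0.182).

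Among the members, Arid2 and Arid4b varied together within groups: Pearson's r of log2 CPM was 0.93 after removal of the group means and 0.51 over the 9 libraries without it. The values share library and depth, the pair was picked from 45 for its high value, and no test is given.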
